A study of Mus musculus with 4 samples.

Results

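Transcripts of 29 subunits of the ionotropic glutamate receptors and of the GABA-A receptor were followed in whole mouse brain, among 23461 genes named on the array. The list of genes was chosen with earlier results of these data known. Its probes were matched by symbol through the RefSeq accessions that the array files give, without regard to signal. The list does not hold every subunit of either family. It comprises 4 AMPA, 5 kainate, 7 NMDA, 1 delta and 12 GABA-A receptor genes, measured by 49 probes. RNA came from wild-type and from Nav1.8CreROSA26DTA mice. In the latter, Cre under the control of the sodium channel gene for Nav1.8 switches on diphtheria toxin A from the ROSA26 locus, which removes Nav1.8-lineage cells, chiefly nociceptive sensory neurons whose cell bodies lie outside the brain. Each genotype received phosphate-buffered saline (PBS) or lipopolysaccharide (LPS, from the outer membrane of Gram-negative bacteria) by injection. LPS was given intraperitoneally at 20 mg/kg and its brains were taken after 12 hours. The time from PBS injection to sampling, age and strain are not given in the sources used here. The 4 groups held 1 single-colour array each, and it is not stated if the RNA was from a single mouse or pooled. Replicate animals are therefore not measured.

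Ionotropic glutamate receptors are cation channels built of 4 subunits each and opened by glutamate, the main excitatory transmitter of the brain. AMPA receptors carry fast excitation, NMDA receptors need a co-agonist and relief of magnesium block and admit calcium, and kainate receptors act on both sides of the synapse. GABA-A receptors are chloride channels of 5 subunits that carry fast inhibition, and their subunit make-up sets whether they sit at synapses or outside them and how they respond to drugs.

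Values are log2 of the background-subtracted spot signal minus the 75th percentile of the same array, so that 0 marks a signal at that percentile. Averaged effects set the 2 LPS arrays against the 2 PBS arrays, or the arrays of one genotype against the other, in 1 limma model, and ± is limma's standard error. A gene was called at a Benjamini-Hochberg adjusted p below 0.05 over all 17132 genes tested. The model has 1 residual degree of freedom, so an error reflects mostly genes of like signal, and no p-value here measures the spread between animals.

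Of the 29 genes, 26 were well above background on all 4 arrays, and the other members, Gabra6, Gabre and Gabrq, were not well above background on any. Gabra6, the alpha subunit typical of cerebellar granule cells, had signals of 1.71 to 2.62, the epsilon subunit gene Gabre 2.01 to 3.07 and the theta subunit gene Gabrq 7.28 to 9.19, so no fold is given for them. The granule cell gene Cbln3 (1.91 to 2.95) and the Purkinje cell gene Ppp1r17 (1.63 to 2.44) were also not well above background on any array, whereas 7 of 9 listed cerebellar genes were measured. Whether the Gabra6 result lies with the probe or with the tissue was not tested. Between arrays, the 75th percentile ranged from 508 to 720 and 66.5% to 69.5% of spots were well above background. Red cell genes differed most between arrays among the marker lists, with summed signals, in multiples of the 75th percentile, of 45.9 (wild-type PBS), 338 (Nav1.8CreROSA26DTA PBS), 110 (wild-type LPS) and 175 (Nav1.8CreROSA26DTA LPS).

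With LPS, 4 of the 26 measured subunit genes fell and 2 rose. Grin2b, which encodes an NMDA receptor subunit prominent in forebrain and in development, fell to 0.543 times its PBS level, and the NMDA subunit genes Grin2c and Grin3a fell to 0.721 and 0.731 times. Gabrd, the gene of the delta subunit of extrasynaptic GABA-A receptors, fell to 0.773 times. Grik4, a kainate receptor subunit gene, rose 1.35-fold and Gabra5, an alpha subunit of mostly extrasynaptic hippocampal receptors, rose 1.26-fold. The 15.4% of members that fell stood against 4.87% of all genes tested, and the 7.69% that rose against 5.84%. The members' median was −0.11 against −0.03 over all genes, and 11 members (42.3%) had an unadjusted p under 0.05, against 23.8% of all genes. The median standard error was 0.101 for the members and 0.122 for all genes, so a difference of the same size passes more easily in a typical member.

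Promoter sequence was set beside the called members. Of the 29 genes 21 had a window in RefSeq's GRCm38.p6 promoter table, among them Grik4, Gabra5 and Grin2c of the 6 called. These 3 windows, the 250 bases before an annotated start on the minus strand, are shown since they belong to called members. With LPS, Grik4 and Gabra5 were higher and Grin2c lower in both genotypes. Capitals mark the GC box GGGCGG on either strand, whose matches may overlap, and the TATA box TATAAA was searched in the same way.
Grik4, chr9:42944372-42944621: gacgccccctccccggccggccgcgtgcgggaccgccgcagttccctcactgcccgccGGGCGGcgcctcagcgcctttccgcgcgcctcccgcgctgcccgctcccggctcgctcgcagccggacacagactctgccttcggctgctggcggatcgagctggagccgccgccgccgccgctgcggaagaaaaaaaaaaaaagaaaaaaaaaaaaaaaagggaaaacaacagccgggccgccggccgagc
Gabra5, chr7:57510060-57510309: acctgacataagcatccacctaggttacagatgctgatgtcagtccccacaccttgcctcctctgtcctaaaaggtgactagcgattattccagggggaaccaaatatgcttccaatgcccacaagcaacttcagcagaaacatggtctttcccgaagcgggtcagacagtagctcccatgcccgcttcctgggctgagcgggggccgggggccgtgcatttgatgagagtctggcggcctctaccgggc
Grin2c, chr11:115267244-115267493: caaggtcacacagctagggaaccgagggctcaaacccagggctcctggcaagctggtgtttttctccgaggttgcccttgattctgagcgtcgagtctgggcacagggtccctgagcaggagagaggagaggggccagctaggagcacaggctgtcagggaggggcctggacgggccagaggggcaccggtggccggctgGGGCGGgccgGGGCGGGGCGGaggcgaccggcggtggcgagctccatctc

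The Grin2c window held 3 GC boxes, that of Grik4 1 and that of Gabra5 0, and none of them held the TATA box. Over all 32851 windows of this length in the table, 32.7% held a GC box and 12.4% a TATA box, and over the members' 25 windows 40% and 16%. The G and C content was 68.8% for Grin2c, 69.6% for Grik4 and 56.4% for Gabra5, beside medians of 58.8% for the members' windows and 52.4% for all. The Grik4 and Gabra5 windows lie inside the annotated gene, before an internal start, and the Grin2c window overlaps the end of the annotated gene where transcription begins. A match is a run of letters and was not tested as a binding site.

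**Figure D1:**
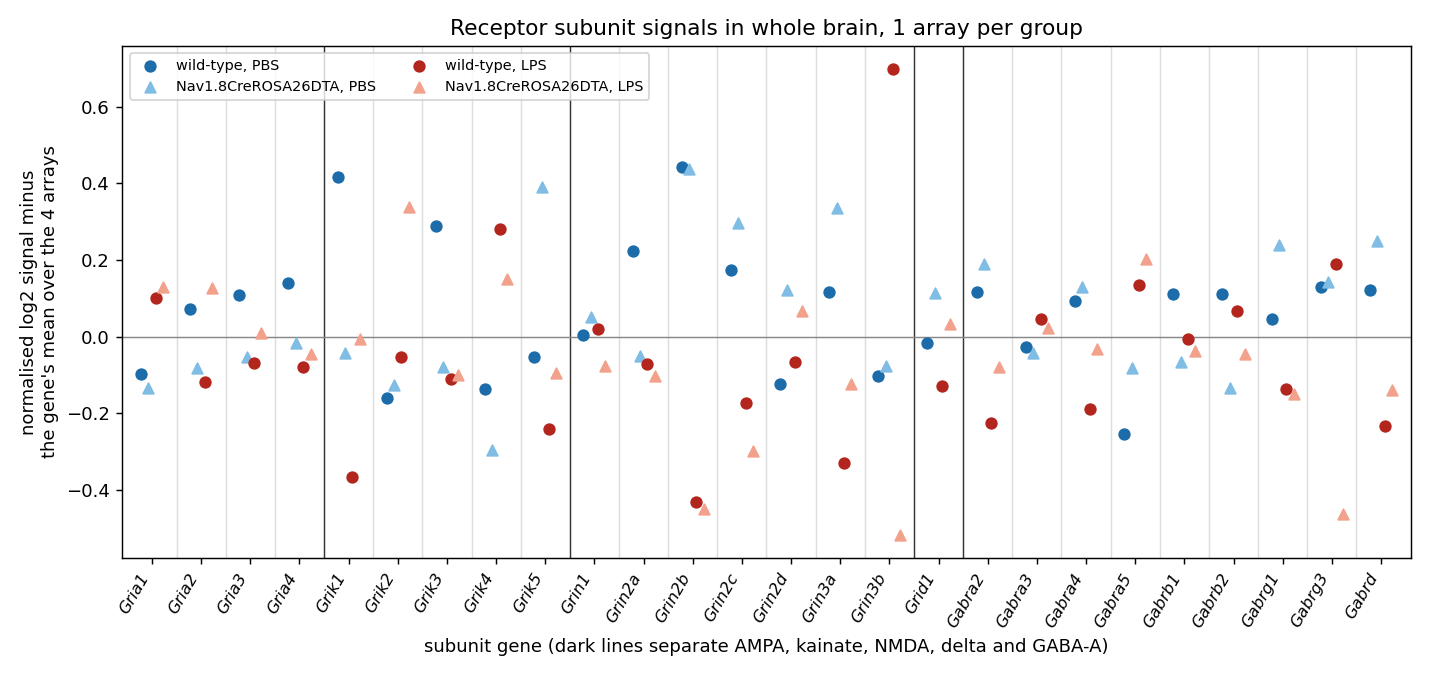
Normalised log2 signal of each of the 26 measured subunit genes on the 4 arrays (vertical axis), as the difference from the gene's own mean, with 1 point per array. For Grin2b both PBS points lie above both LPS points by about the same distance, for Grik4 and Gabra5 both LPS points lie above, for Grin3b the LPS points lie on either side of the PBS points, and for Grik1 the wild-type points lie farthest apart.

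The levels of Grin2b were 2.21 and 2.21 on the wild-type and Nav1.8CreROSA26DTA PBS arrays and 1.34 and 1.32 on the corresponding LPS arrays. The PBS arrays did not overlap with the LPS arrays, and the arrays of each pair lay almost at the same level. The averaged difference was −0.88 ± 0.09 (limma adjusted p = 0.000204), made of −0.87 in wild-type and −0.89 in Nav1.8CreROSA26DTA. Among the 6 called members only Grin2b stayed called without any 1 of the 4 arrays, with adjusted p between 0.0124 and 0.0174. A fainter second probe of Grin2b read −1.95, −1.86, −2.03 and −2.27 in the order wild-type PBS, Nav1.8CreROSA26DTA PBS, wild-type LPS and Nav1.8CreROSA26DTA LPS, a difference of −0.25. Both probes were lower with LPS, but by different amounts, and the average of the 2 probes differed by −0.56 (adjusted p = 0.0153).

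Grin2c encodes an NMDA receptor subunit known from cerebellar granule cells, thalamus and astrocytes. Its levels were 2.24 and 2.36 with PBS and 1.89 and 1.77 with LPS, wild-type first. All LPS values lay below all PBS values, with a difference of −0.47 ± 0.10 (adjusted p = 0.0144). The second Grin2c probe gave 1.8, 1.75, 1.35 and 1.33 in the array order used above, and a difference of −0.43. Beside this, the 6 astrocyte markers had an LPS median of 0.14, with 2 genes up and 1 down, and summed signals of 43.1 and 52.7 with PBS and 59.2 and 63.5 with LPS. The 7 measured cerebellar genes had a median of −0.19 with none called for LPS, while 1 of them, Cbln1, was called by genotype. Over all 9 listed cerebellar genes, the summed signals were 3.94 and 5.34 with PBS against 4.66 and 4.89 with LPS. The part of these cell types in the Grin2c result was not tested, and in bulk tissue fewer cells of a type and less RNA per cell cannot be told apart.

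Grin3a encodes a glycine-binding NMDA subunit that lowers the calcium entry of the receptors it joins. Its levels were 0.98 and 1.20 with PBS and 0.53 and 0.74 with LPS, a difference of −0.45 ± 0.10 (adjusted p = 0.0182) on 1 probe. The LPS arrays lay below the PBS arrays once each array was scaled, but the unscaled signals of 1191 and 1167 with PBS and 905 and 1201 with LPS overlapped. The brightest array was Nav1.8CreROSA26DTA LPS, so the Grin3a value in that genotype rests on the scaling. With the deposited value table, which carries another factor per array, the Grin3a difference was −0.38 (adjusted p = 0.0569).

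The remaining NMDA receptor genes were not called. Grin1, the obligatory subunit of NMDA receptors, had levels of 2.59 and 2.64 with PBS and 2.61 and 2.51 with LPS, which overlapped, and a difference of −0.06 ± 0.09 (adjusted p = 0.776). Grin2a, the subunit that joins Grin2b in adult forebrain receptors, differed by −0.17 ± 0.11 (adjusted p = 0.379), with 1.23 and 0.96 against 0.94 and 0.90. Grin2d, a subunit of slowly closing receptors, differed by 0.00 ± 0.10 (adjusted p = 0.995). The Grin2d levels of 1.60, 1.84, 1.65 and 1.79 in the array order followed genotype rather than agent, without passing the genotype test (adjusted p = 0.565). The NMDA group thus held 3 of the 4 members that fell, and its median over 7 genes was −0.17.

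In the kainate group Grik4, whose window is printed above, a high-affinity subunit that needs a low-affinity partner, read 1.64 and 1.49 with PBS and 2.06 and 1.93 with LPS. The LPS arrays stood above the PBS arrays in both genotypes, by 0.42 in wild-type and 0.45 in Nav1.8CreROSA26DTA, and the averaged difference was 0.43 ± 0.10 (adjusted p = 0.016). Grik5, the other high-affinity subunit, went the other way without passing the test, with 2.52 and 2.96 against 2.33 and 2.47 and a difference of −0.34 ± 0.10 (adjusted p = 0.068). The Grik5 value moved with the Nav1.8CreROSA26DTA PBS array, standing at −0.11 without it and at −0.56 without wild-type PBS. Grik5 passed the test with median scaling (adjusted p = 0.0333), normexp background correction (adjusted p = 0.00638) and without the filter on dim probes (adjusted p = 0.00654).

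Among the low-affinity kainate subunits, Grik1 had levels of −1.09, −1.55, −1.87 and −1.51 in the array order. The wild-type PBS array was highest and the wild-type LPS array lowest, so that the groups overlapped, and the averaged difference was −0.37 ± 0.19 (adjusted p = 0.286). Grik3 differed by −0.21 ± 0.12 (adjusted p = 0.33), also with the wild-type PBS array highest at 1.19 against 0.79 to 0.82 on the others. The 3 probes of Grik2 disagreed in sign, at 0.29, −0.49 and −0.09, at signals of 54.7 or less on average, so that no direction is given for Grik2.

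The 4 AMPA receptor genes had a median of −0.02, with 0 called in either direction. Gria1, a subunit moved to synapses during plasticity, read 4.33 and 4.29 with PBS and 4.53 and 4.56 with LPS. These Gria1 values did not overlap, but the difference of 0.23 ± 0.09 did not pass (adjusted p = 0.15). Gria2, which keeps AMPA receptors nearly impermeable to calcium, differed by 0.01 ± 0.11 (adjusted p = 0.973), Gria3 by −0.06 ± 0.10 (adjusted p = 0.786) and Gria4 by −0.12 ± 0.10 (adjusted p = 0.518). Grid1, a delta receptor gene whose product binds cerebellins at synapses, differed by −0.10 ± 0.17 (adjusted p = 0.787).

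Among GABA-A receptor genes 1 of the 9 measured rose and 1 fell, and the group had a median of −0.22. Gabra5 read 2.44 and 2.62 with PBS and 2.83 and 2.90 with LPS, and both LPS arrays stood above both PBS arrays. The difference was 0.34 ± 0.09 (adjusted p = 0.0455), and a second Gabra5 probe gave 0.34 and 0.46 against 0.68 and 0.66, a difference of 0.27. The Gabra5 call ended with median scaling (0.28, adjusted p = 0.0907) and when its 2 probes were averaged (0.30, adjusted p = 0.088).

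Gabrd read 3.45 and 3.58 with PBS and 3.1 and 3.19 with LPS, on 1 probe, a difference of −0.37 ± 0.09 (adjusted p = 0.0259). The scaled arrays did not overlap, while the unscaled signals of 6635 and 6083 with PBS and 5366 and 6575 with LPS did. The Gabrd call ended with the deposited value table (−0.30, adjusted p = 0.0744) and after cyclic loess (−0.29, adjusted p = 0.0827). Gabra4, an alpha subunit that often pairs with delta, had 3.51 and 3.54 against 3.23 and 3.38, which did not overlap, and a difference of −0.22 ± 0.09 that did not pass (adjusted p = 0.176).

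Gabra2, an alpha subunit of synaptic receptors, read 1.28 and 1.36 with PBS and 0.94 and 1.09 with LPS. Its LPS arrays lay below its PBS arrays, yet the difference of −0.30 ± 0.10 did not pass (adjusted p = 0.0874), except with median scaling (adjusted p = 0.0405) and without the filter on dim probes (adjusted p = 0.0325). Gabra3, Gabrb1 and Gabrb2, which supply alpha and beta subunits, differed by 0.07 ± 0.09, −0.04 ± 0.10 and 0.02 ± 0.09, none of which passed (adjusted p = 0.699, 0.844 and 0.92). Of the gamma subunit genes, Gabrg1 differed by −0.29 ± 0.11 (adjusted p = 0.145) and Gabrg3 by −0.27 ± 0.25 (adjusted p = 0.566). The probes of Gabra3, Gabrb2, Gabrg1 and Grik2 disagreed in sign, against 10 other members whose measured probes shared 1 sign.

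**Figure D2:**
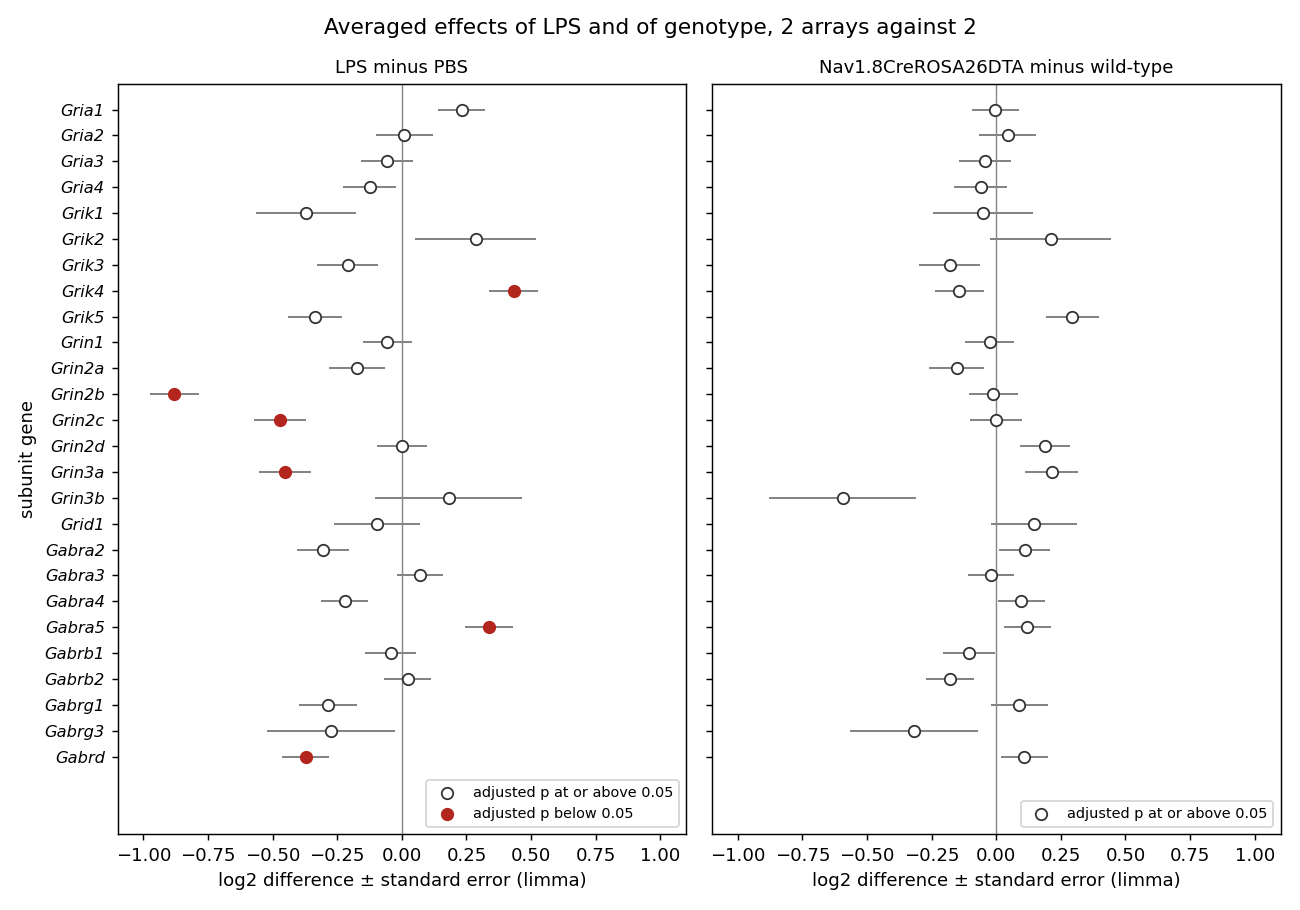
Averaged log2 difference of each measured subunit gene between LPS and PBS (left) and between Nav1.8CreROSA26DTA and wild-type (right), each from 2 arrays against 2, with limma's standard error as bars. Filled points passed an adjusted p of 0.05: Grin2b, Grin2c, Grin3a and Gabrd on the lower side and Grik4 and Gabra5 on the higher side for LPS, and no gene for genotype.

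The LPS arrays lay entirely below the PBS arrays for 11 members (42.3%, against 29.5% of all genes) and entirely above for 5 (19.2%, against 21.6%). Fits without 1 array leave genotype out of the LPS effect, and fewer genes were called in them over the whole array. Without any 1 of the 4 arrays the calls of Grin2c, Grin3a, Grik4, Gabra5 and Gabrd ended. Their differences kept their sign, running from −0.53 to −0.41 for Grin2c, −0.56 to −0.34 for Grin3a, 0.35 to 0.51 for Grik4, 0.25 to 0.42 for Gabra5 and −0.44 to −0.31 for Gabrd. Without the intensity trend in limma 0 members were called, Grin2b standing at an adjusted p of 0.0554, and 403 genes rose and 55 fell in all.

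Markers of cell types were read on the same arrays. Of 10 pan-neuronal markers 2 fell and 8 did not pass, with a median of −0.11. Those that fell were Tubb3 (−0.58 ± 0.11, adjusted p = 0.00815) and Map2 (−0.34 ± 0.09, adjusted p = 0.0454). The summed signals of the 10 were 400 and 384 with PBS and 354 and 346 with LPS. By region, 2 of 6 measured striatal markers rose and 1 fell (median 0.33), among them Ppp1r1b at 0.55 ± 0.09 (adjusted p = 0.00372). The summed signals of all 7 listed striatal markers were 23.8 and 26.2 against 28.1 and 29. Among 7 forebrain glutamatergic markers 1 rose and 1 fell (median −0.00), and among 8 GABAergic interneuron markers 1 fell (median −0.16). Of the glial lists, 4 of 5 oligodendrocyte precursor markers fell (median −0.72), with summed signals of 14.3 and 18.5 against 7.54 and 11.7. Of 5 microglia markers 3 fell (median −0.64), among them P2ry12 at −2.73 ± 0.15 (adjusted p = 1.49e-06), with summed signals of 26.3 and 33.1 against 23.6 and 23.2. Of 5 oligodendrocyte markers 1 fell (median −0.31), with summed signals of 84.1 and 118 against 57.5 and 119. The part of any cell type in the subunit results was not tested.

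Both genotypes can be read apart, although 1 array against 1 has no replicate check and no test. Genes were counted past a 1.5-fold difference where well above background on both arrays. In wild-type, Grin3b was higher by this measure and Grin2b and Grik1 were lower, which is 3.85% and 7.69% of the members against 6.54% and 3.19% of 16494 genes. In Nav1.8CreROSA26DTA, Grin2b, Grin2c and Gabrg3 were lower, 11.5% against 6.36% of 16530 genes, and 0 members were higher, against 7.01%. The members' medians were −0.18 in wild-type and −0.05 in Nav1.8CreROSA26DTA, against −0.02 and −0.04 over the genes measured on both arrays. Of 26 members 17 had responses of the same sign in both genotypes, a share that was not counted over all genes. The differences for Grin2b, Grin3a, Grik4 and Gabrd between genotypes were at most 0.03 in size, at −0.01, −0.01, 0.03 and −0.03. The other called members differed more, Grin2c by −0.25 (−0.35 in wild-type and −0.59 in Nav1.8CreROSA26DTA) and Gabra5 by −0.11 (0.39 and 0.28). The difference between the responses is the only residual of the model, so genes with near-equal responses are called more easily. Near-equal responses among called members are thus in part set by the calling.

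Between the responses 3 members differed by at least 1.5-fold, 11.5% of the members against 9.37% of 16244 genes measured on all arrays. Grin3b, a glycine-binding NMDA subunit best known from motor neurons, read −3.25 and −3.23 with PBS and −2.45 (wild-type) and −3.67 (Nav1.8CreROSA26DTA) with LPS. The LPS arrays lay on opposite sides of the PBS arrays, and the responses were 0.80 and −0.44, a difference of −1.24. Signals of Grin3b were low, at 54.4 to 115, and the difference was −0.65 with normexp background correction. Gabrg3, also faint at 47.1 to 64.4, read −3.34 and −3.33 with PBS and −3.28 and −3.93 with LPS, so that only the Nav1.8CreROSA26DTA LPS array stood apart, and the responses differed by −0.66.

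Grik1 responded by −0.78 in wild-type and by 0.04 in Nav1.8CreROSA26DTA, a difference of 0.82. Its other 2 measured probes gave −0.66 and 0.20, and −0.56 and 0.08, so that each of the 3 probes was lower with LPS in wild-type only. The probes share 1 RNA and 1 array per group and are not replicates. Gria2 had the same order of responses at a smaller size, with −0.19 and 0.21 on its bright probe and −0.20 and 0.53 on its faint one. The responses of Grin2a (−0.29 and −0.05), Grik3 (−0.40 and −0.02) and Gria4 (−0.22 and −0.03) were also lower in wild-type, by differences that no test bears on. A second Grin2a probe gave −0.16 and −0.13. The other Gria4 probes gave −0.04 and −0.22, the opposite order, and −0.18 and 0.05. Grik5 (−0.19 and −0.49) and Gabrg1 (−0.18 and −0.39) were lower in Nav1.8CreROSA26DTA. Over the 26 members the difference of responses was above 0 for 14 and below 0 for 12. The wild-type PBS array enters each difference of responses.

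**Figure D3:**
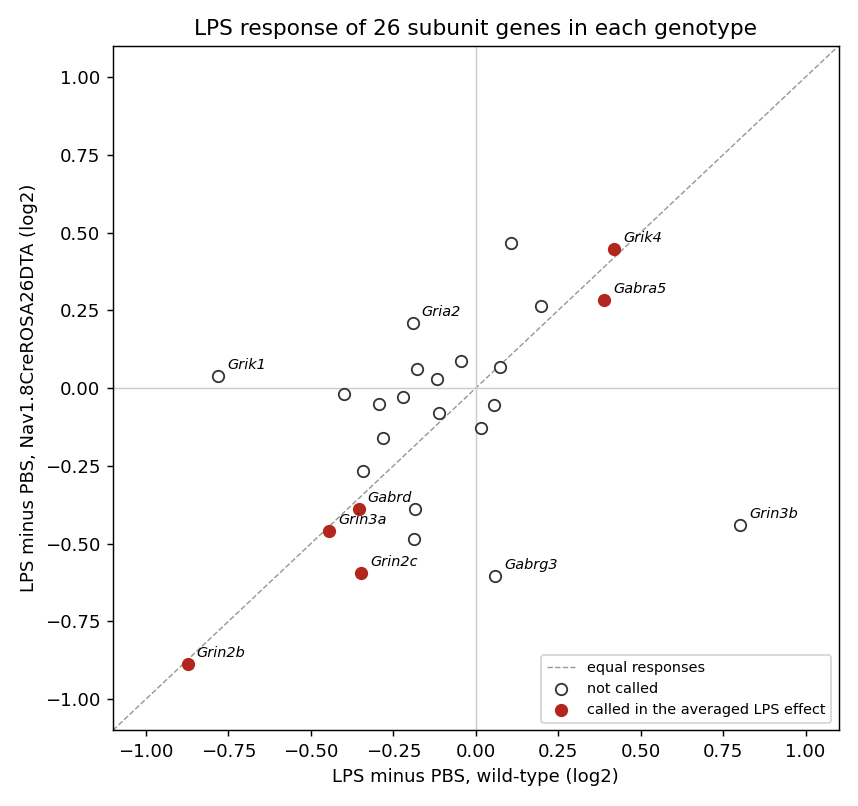
LPS minus PBS log2 difference of the 26 measured subunit genes in wild-type (horizontal) and in Nav1.8CreROSA26DTA (vertical), with 1 array per group and the line of equal responses. Grin2b, Grin3a, Gabrd and Grik4 lie on or near the line, while Grin3b, Grik1 and Gabrg3 lie farthest from it.

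Between genotypes, averaged over both injections, 0 of 26 members were called by limma, against 0.695% of all genes tested, and 1 member (3.85%) had an unadjusted p under 0.05, against 10.3% of all genes. That member was Grik5, with levels of 2.52 and 2.33 in wild-type and 2.96 and 2.47 in Nav1.8CreROSA26DTA, a difference of 0.29 ± 0.10 (adjusted p = 0.315). The wild-type and Nav1.8CreROSA26DTA levels of Grik5 overlapped, and it was called with normexp background correction (0.32, adjusted p = 0.0455). The members ranged from −0.59 ± 0.29 (Grin3b, adjusted p = 0.531) to the Grik5 value, with a median of −0.01 against 0.02 over all genes. The arrays of the genotypes did not overlap for 4 members (15.4%, against 28.9% of all genes). Grin2d and Grid1 were higher and Gabrb1 and Gabrb2 lower in Nav1.8CreROSA26DTA with either injection, by 0.19 ± 0.10, 0.15 ± 0.17, −0.11 ± 0.10 and −0.18 ± 0.09, none of which passed (adjusted p = 0.565, 0.852, 0.806 and 0.569).

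With PBS, 0 of 26 members differed between genotypes by 1.5-fold, against 7.01% of 16627 genes. Their differences ran from −0.46 (Grik1) to 0.44 (Grik5), on the pair of arrays whose red cell signals were 45.9 and 338. With LPS, Grin3b (−1.22) and Gabrg3 (−0.65) were lower in Nav1.8CreROSA26DTA by that measure, 7.69% of the members against 4.7% of 16520 genes. Both are the faint members already described.

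The genes that act with these receptors were read from 7 lists of 78 genes, of which 76 were measured. With LPS 13 of them (17.1%) fell and 0 rose, against 4.87% and 5.84% of all genes, and their median was −0.14. The lists were chosen with earlier results of these data known, so the part of that choice in these shares cannot be told apart. Among 13 auxiliary subunits of AMPA and kainate receptors 3 fell (median −0.15). Cacng4, a transmembrane AMPA receptor regulatory protein found in glia as well as neurons, fell by 1.45 ± 0.27 (adjusted p = 0.00615), from −3.25 and −2.63 to −4.32 and −4.47. Signals of Cacng4 were low, at 63.4 and 82.4 with PBS and 31.4 and 32.5 with LPS. The Cacng4 difference was −0.86 with normexp background correction. Cnih3, a cornichon that slows AMPA receptor closing, fell by 0.43 ± 0.10 (adjusted p = 0.0276) and Cacng3 by 0.42 ± 0.11 (adjusted p = 0.0312).

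Of 15 scaffold genes of the glutamate synapse 4 fell (median −0.17). Homer2 fell by 0.64 ± 0.14 (adjusted p = 0.0154), and Dlgap2 and Dlgap3, which link the postsynaptic density proteins to Shank proteins, fell by 0.61 ± 0.10 and 0.48 ± 0.10 (adjusted p = 0.0025 and 0.0136). Of 7 measured extracellular organisers Cbln2, a cerebellin that bridges neurexins to delta receptors, fell by 0.51 ± 0.11 (adjusted p = 0.0178). Of 9 measured metabotropic receptor genes 2 fell (median −0.21). Gabbr2, whose product pairs with that of Gabbr1 in the GABA-B receptor, read 1.31 and 1.52 with PBS and 0.70 and 0.37 with LPS and fell by 0.88 ± 0.13 (adjusted p = 0.00188).

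Insyn1, an inhibitory synapse scaffold protein gene, fell by 0.51 ± 0.12 (adjusted p = 0.0185), the 1 gene called of 10 in its list (median −0.10). Glul, the glutamine synthetase gene of astrocytes, fell by 0.37 ± 0.10 (adjusted p = 0.0347) and the glutamine carrier gene Slc38a1 by 0.36 ± 0.09 (adjusted p = 0.0316), both of 12 genes for glutamate supply and uptake (median −0.05). Both calls ended with the mean of all probes, at −0.33 for Glul (limma adjusted p = 0.0655) and −0.27 for Slc38a1 (adjusted p = 0.139). Of 10 genes for GABA supply, uptake and chloride transport 0 were called (median −0.15). Without 1 of the 4 arrays, the calls of Cacng3, Cnih3, Dlgap2, Homer2, Cbln2, Glul and Slc38a1 ended whichever array it was. In the fits without 1 array, fewer genes were called over the whole array too. Calls held without 1 array only in part for Gabbr2 (2 of 4 arrays), Cacng4, Dlgap3 and Insyn1 (1 of 4 each). Scaling mattered too: of the 76 genes 6 fell with the deposited value table and 4 after cyclic loess. Without the intensity trend all 13 calls ended, with adjusted p from 0.0904 (Cacng4) to 0.237 (Glul).

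By genotype 1 of the 76 genes was called. Cbln1, a cerebellin that binds delta receptors, was higher in Nav1.8CreROSA26DTA by 1.60 ± 0.14 (adjusted p = 0.00114), with −1.38 and −0.82 in wild-type and 0.43 and 0.56 in Nav1.8CreROSA26DTA. The 4 arrays did not overlap between genotypes, and the call ended without the intensity trend (adjusted p = 0.374). Without any 1 array the Cbln1 difference ran from 1.31 to 1.88 and the call ended. Those fits leave LPS against PBS in their error, so the ending of the call in them cannot bear on Cbln1.

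**Figure D4:**
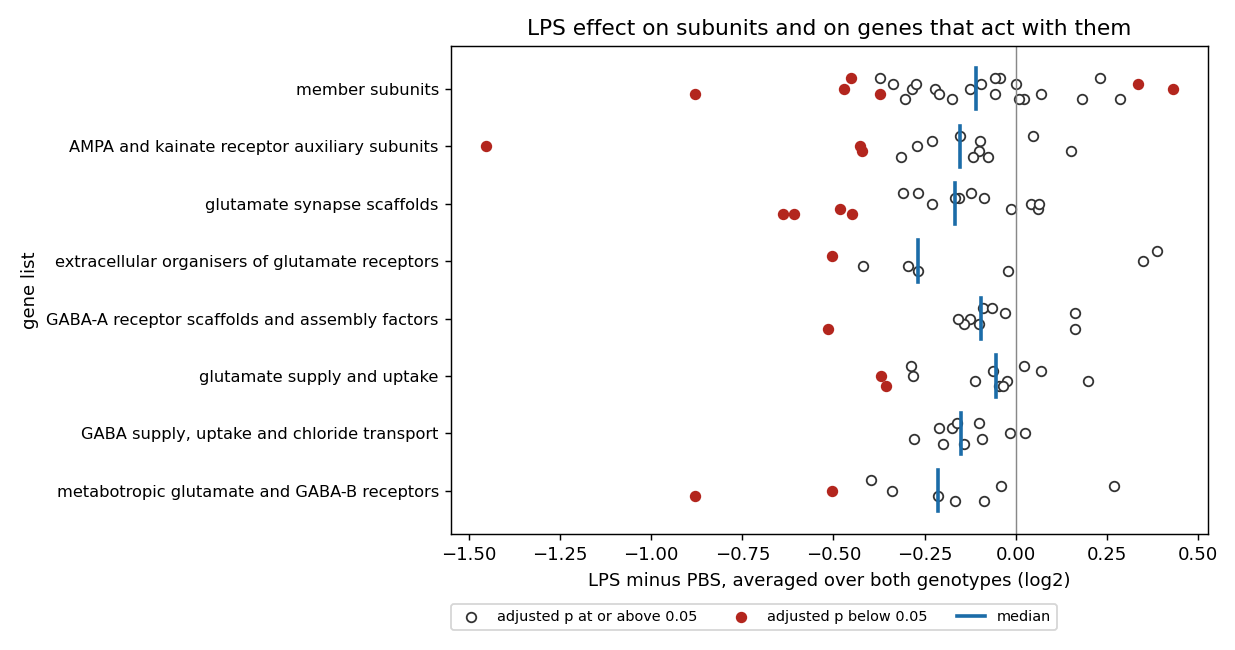
LPS minus PBS log2 difference, averaged over both genotypes, for the 26 measured subunit genes (top) and for 7 lists of genes that act with them, 1 point per gene, with the median of each list as a bar and filled points at an adjusted p below 0.05. The medians lie between −0.27 and −0.05, and the filled points outside the subunit list all lie below 0.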

How the data were processed

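Total RNA of whole brain was hybridised to 4 single-colour Agilent arrays, 1 per group. The deposited intensity used is the processed signal of each spot as Feature Extraction gives it after its own background correction. Per the file headers, which list statistics of a spatial detrending, the version was 12.0.3.1, while the submitters' processing notes name 11.0.1.1. The deposited flags of 0 or 1 mark spots well above background, saturated (0 here) or outlying (81 to 96 per array, left out). The deposited value table holds linear intensity values and equalled the processed signal times 1 factor per array (1.57 to 2.09, within 0.1% for at least 59304 of 59305 spots), a factor whose origin no source used here states. Its column medians were 97.2, 91.4, 103 and 102.

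Spots of a probe were averaged, and 33767 of 56605 probes had 1 symbol through RefSeq accessions (GRCm38.p6). A gene was represented by its probe well above background on most arrays, then by the highest mean, and was tested if well above background on at least 2 arrays. The model, genotype plus agent, was fitted with limma 3.58.1 in R 4.3.3 (eBayes with intensity trend, two-sided, Benjamini-Hochberg) and was tested on simulated data. The simulated errors were independent and the simulated LPS changes equal in both genotypes, as the model assumes. The simulation therefore checks the code and cannot show that calls hold in these arrays. The prior of the model had 8.87 degrees of freedom. Spots repeated within an array had a median SD of 0.0418 to 0.0455 (log2). The files hold no mean spot signal, so normexp (offset 50) used the median signal. Slide position is tied to the groups and cannot be told apart from them.

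The members and lists were chosen with earlier results of these data known. Values are given in full for called members, for those with the 3 largest response differences and for the 3 largest uncalled LPS effects, and from each gene list for at most 3 called genes. The array values of Gria1, Grin1, Grin2a, Grin2d and Gabra4 are given beyond this rule and were chosen after being seen. The values of 1 called gene of these lists are not reported here.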

Additional observations from a re-analysis of the deposited data

Results flagged for a closer look

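Gria2 and Grin3b had LPS responses of opposite sign in the genotypes, each at least 0.1 on the log2 scale, and with 1 array per group the difference was not tested. For Gria2 the response was −0.19 in wild-type and 0.21 in Nav1.8CreROSA26DTA, a difference of 0.40. For Grin3b it was 0.80 and −0.44, a difference of −1.24, at low signal.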

How the results depend on the processing

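No paired analysis was possible because each group holds 1 array. Alternatives were other scalings (median, the deposited value table, cyclic loess), normexp, no or a strict filter on dim probes, the mean of all probes, no intensity trend and leaving out each array. In every alternative of the LPS effect, the members' median stayed below 0, from −0.16 to −0.04. Against 2 members that rose and 4 that fell, 1 rose with median scaling or the mean of all probes, 2 fell with the deposited value table, 3 after cyclic loess, 5 with normexp, and 6 with median scaling or without the filter on dim probes (Grik5 and Gabra2 added), and 0 rose and 0 fell without the intensity trend. Fits without 1 array set 2 arrays against 1, leave genotype out of the LPS effect and assume that the lone array varies like the others. Fewer genes were called in them over the whole array, so a lost call there is not particular to a member. The members' median LPS difference in these fits ran from −0.14 to −0.06. By genotype, in the fits of all 4 arrays, 0 members rose or fell except 1 that rose with normexp. The genotype median ran from −0.055 to 0.095 without 1 array, in fits that leave LPS against PBS in their error. With normexp, the members past 1.5-fold in wild-type were 0 higher and 1 lower, in Nav1.8CreROSA26DTA 1 lower, between genotypes with LPS 0 lower, and between the responses 0 higher and 1 lower. In wild-type 1 was lower with the mean of all probes, and in Nav1.8CreROSA26DTA 1 with the deposited value table. Of the 76 companion genes, 13 of which fell, 6 fell with the deposited value table, 4 after cyclic loess and 20 without the filter, while 1 rose with normexp and 1 without the filter. Over all genes, 1000 rose and 834 fell with LPS, against 963 and 1292 with median scaling, 1043 and 433 with the deposited value table, 926 and 426 after cyclic loess, 1103 and 1405 with normexp, 1575 and 1560 without the filter and 403 and 55 without the intensity trend. The cause of these shifts was not tested. A block for slide position was not run, since position is tied to the groups. Faint members such as Grin3b, Gabrg3 and Grik2 are the least precise.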
